A study of Mus musculus with 17 samples.

Results

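The genes that carry cells through mitosis were followed across 3 feeding groups in periprostatic fat, the adipose tissue that surrounds the mouse prostate. The 42 genes were listed by name: mitotic cyclins and kinases, condensins, kinetochore and checkpoint proteins, spindle motors and cytokinesis factors. A gene was measured where a probe set carried its symbol alone. Of these, 40 were measured, each on 1 probe set, among 22180 genes in all. Ccnb1 had no probe set under its name, and the only probe set naming Ncapg also named another gene, so neither gene is given a value. No filter on signal was applied, so all 40 were tested.

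Every mouse was a male C57BL/6J that started its diet at 6 weeks of age, and all were 25 weeks old when the fat was taken. The HFD+CR group (5 mice) ate a diet with 60 kcal% fat freely for 12 weeks, then for 7 weeks was given each day 70% of the amount that the HFD group ate. The HFD group (6 mice) had the same 60 kcal% fat diet without limit throughout. The LFD group (6 mice) had unlimited food with 10 kcal% fat. No restricted low-fat group was analysed here. The comparisons were therefore HFD against LFD for long-term high-fat feeding, HFD+CR against HFD for restriction of the same diet, and HFD+CR against LFD for what differed after restriction. The first pair of comparisons share the HFD mice and the last shares its mice with both.

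As background, entry into mitosis is driven by Cdk1 bound to A-type and B-type cyclins, after which condensins compact the chromosomes and kinetochores attach them to spindle microtubules. The spindle checkpoint holds back the anaphase-promoting complex until every kinetochore is attached, and the central spindle and contractile ring then divide the cell. Most of these genes are transcribed in late S and G2 phase and are nearly silent in resting cells. Mature adipocytes rarely divide, whereas dividing macrophages and dividing adipocyte progenitors have both been described in the fat of obese mice.

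Values are log2 signals, so a difference of 1 is a doubling. Array medians lay between 7.03 and 7.15, and all signals between 4.55 and 14.4. Adipocyte markers were high in every mouse, with a mean over 10 measured markers of 12.69 to 12.86 in HFD+CR, 12.33 to 12.56 in HFD and 12.68 to 12.84 in LFD. Some arrays stood apart from the rest. Male germ cell markers (22 measured) averaged 8.17 in HFD+CR mouse 1, against 6.52 to 7.15 in the other 16 mice. Prostate and accessory gland markers averaged 7.61 in LFD mouse 3 and 6.86 in HFD mouse 3, against at most 6.19 elsewhere, and skeletal muscle markers averaged 10.2 in LFD mouse 2, 9.15 in LFD mouse 3 and 9.16 in HFD+CR mouse 2. HFD mouse 6 (8.18) and LFD mouse 5 (8.02) were raised as well, and the remaining 12 mice had 7.19 to 7.31. When the 4 arrays highest in gland or muscle markers were left out, 39 of 40 genes were higher in HFD than in LFD, with Cenpf at 0.29 (adjusted p = 0.0574), 39 were lower in HFD+CR than in HFD, with Kif2c at −0.35 (adjusted p = 0.107), and 4 were higher in HFD+CR than in LFD. With HFD+CR mouse 1 left out as well, an alternative chosen after seeing the data, 40 of 40 genes were higher in HFD than in LFD, 40 were lower in HFD+CR than in HFD, and 1 was higher in HFD+CR than in LFD.

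In the fat of HFD mice all 40 genes were higher than in LFD mice (limma, Benjamini-Hochberg adjusted p under 0.05 over all genes), against 16.5% of all genes called higher. None of the 40 was lower, against 11.3% of all genes called lower. The 40 were chosen with earlier results of these data known, so contrasts with all genes, here and below, may partly reflect that choice. The median difference over the 40 was 0.85, or 1.8-fold, beside −0.003 over all genes tested. The largest was Cdk1, the kinase of mitotic entry, at 1.71 ± 0.08 (SE, adjusted p = 4.41e-10), and the smallest was Cenpf, a kinetochore protein, at 0.32 ± 0.09 (SE, adjusted p = 0.011). In 37 of 40 genes the lowest HFD mouse was above the highest LFD mouse, a separation that 9.05% of all genes showed in this direction. Cenpf, Ncaph and Foxm1 overlapped.

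In HFD+CR mice all 40 genes were lower than in HFD mice, against 11.3% of all genes called lower, and 0 were higher, against 7.69% called higher. The median difference was −0.73, or 0.601-fold, beside −0.002 over all genes. It ran from −1.33 ± 0.12 (SE, adjusted p = 4.37e-06) for Mki67, the marker of dividing cells, to −0.33 ± 0.07 (SE, adjusted p = 0.00417) for Cdca3. The highest HFD+CR mouse was below the lowest HFD mouse in 35 genes, as in 8.26% of all genes in this direction. The 5 that overlapped were Cdc20, Cenpf, Kif2c, Foxm1 and Cdca3.

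Between HFD+CR and LFD mice 4 of the 40 genes differed, all higher in HFD+CR. That is 10.0% of the 40, against 5.8% of all genes called higher and 3.28% called lower. The 4 were Cdk1, Spc25, Anln and Cdca3, with differences of 0.97, 0.46, 0.35 and 0.27 in that order. The median difference of the 40 was 0.08, beside 0.00 over all genes. Fat is a mixed tissue, so in each of these comparisons a change in the number of dividing cells and a change in mitotic RNA per cell cannot be told apart. In 17 of the 40 genes the LFD mean was below the lowest array median, among them Bub1, Ndc80, Spc25, Birc5, Tpx2 and Kif4, and sizes for these genes are the least certain.

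**Figure D1:**
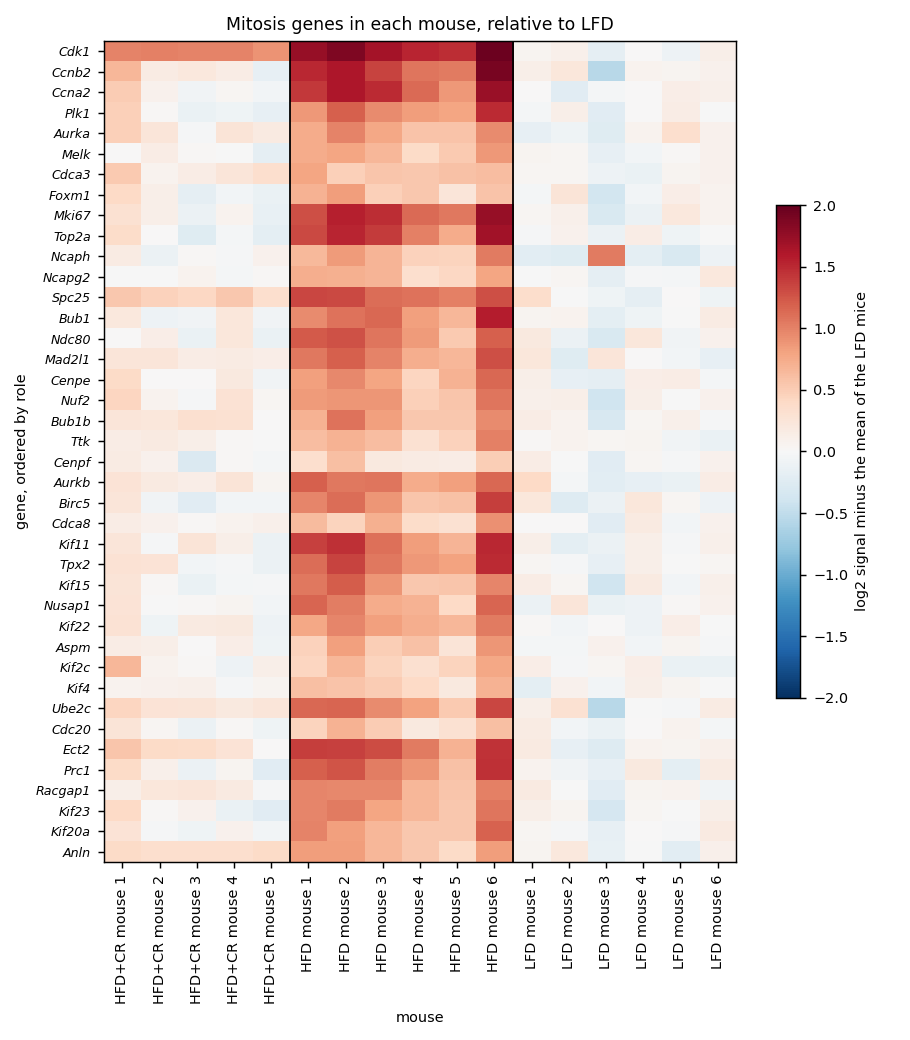
Signal of the 40 measured mitosis genes in each mouse, as log2 signal minus the mean of the 6 LFD mice for that gene; columns are mice, rows are genes ordered by role, and red is higher than LFD. The HFD block is red in nearly every cell, the HFD+CR block is close to white except for Cdk1, Spc25 and a few others, and LFD mouse 3 is red for Ncaph and blue for most other genes.

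Among cyclins, kinases and regulators of mitotic entry, 8 of 9 genes were measured, and all 8 were higher in HFD than LFD and lower in HFD+CR than HFD. Cdk1 measured 8.52, 8.54, 8.52, 8.52 and 8.43 in the 5 HFD+CR mice, against 9.01 at the lowest, 9.24 at the median and 9.50 at the highest in the HFD mice and 7.36 at the lowest, 7.57 at the median and 7.65 at the highest in the LFD mice. The 3 groups did not overlap for this gene, with HFD+CR between the others. Ccnb2 measured 8.75, 8.25, 8.30, 8.24 and 7.93 in the 5 HFD+CR mice, against 9.13 at the lowest, 9.53 at the median and 9.99 at the highest in the HFD mice and 7.53 at the lowest, 8.17 at the median and 8.32 at the highest in the LFD mice. Ccnb2, cyclin B2, is a partner of Cdk1 in mitosis, and its HFD mice lay above every other mouse, while HFD+CR and LFD mice overlapped. Ccna2 measured 8.42, 8.01, 7.85, 7.96 and 7.87 in the 5 HFD+CR mice, against 8.79 at the lowest, 9.37 at the median and 9.65 at the highest in the HFD mice and 7.69 at the lowest, 7.93 at the median and 8.05 at the highest in the LFD mice. Ccna2, cyclin A2, acts in S phase and early mitosis, and here too only the HFD mice were set apart.

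For Cdk1 the differences were 1.71 ± 0.08 (SE, adjusted p = 4.41e-10) for HFD minus LFD and −0.73 ± 0.08 (SE, adjusted p = 1.01e-05) for HFD+CR minus HFD. Ccnb2 differed by 1.42 ± 0.16 (SE, adjusted p = 2.22e-06) and −1.21 ± 0.17 (SE, adjusted p = 5.66e-05) in the same comparisons. Ccna2 differed by 1.38 ± 0.13 (SE, adjusted p = 2.54e-07) and −1.27 ± 0.13 (SE, adjusted p = 8.6e-06). Each of these exceeded the spread between mice of a group. Foxm1 measured 7.53, 7.24, 6.95, 7.08 and 7.01 in the 5 HFD+CR mice, against 7.38 at the lowest, 7.68 at the median and 7.97 at the highest in the HFD mice and 6.77 at the lowest, 7.14 at the median and 7.39 at the highest in the LFD mice. Foxm1, a transcription factor that activates genes of G2 and mitosis, changed by 0.56 ± 0.11 (SE, adjusted p = 0.00101) in HFD and −0.53 ± 0.12 (SE, adjusted p = 0.00385) in HFD+CR, and its lowest HFD mouse was below the highest mouse of both other groups. The other regulators are Plk1 and Aurka, kinases of centrosome maturation and spindle assembly, Melk, a kinase abundant in dividing cells, and Cdca3, a trigger of mitotic entry that is degraded in G1. HFD minus LFD was 1.02 for Plk1, 0.76 for Aurka, 0.66 for Melk and 0.60 for Cdca3. HFD+CR minus HFD was −0.997 for Plk1, −0.54 for Aurka, −0.66 for Melk and −0.33 for Cdca3. All but 1 of the values of Melk lay below the array median, and with these raised to the median it differed by 0.002 in HFD+CR minus HFD.

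The promoters of these genes share short sequences that the choice of genes did not use. Many mitotic genes are known to be held silent in resting cells by the DREAM complex, and driven in G2 by the MuvB complex with B-Myb and Foxm1, through a cell cycle genes homology region (CHR), and NF-Y binds the CCAAT box nearby. The promoters of Cdk1, Ccnb2, Plk1 and Ube2c are shown as examples. Only windows with a CHR match could be shown, so that all 4 have a CHR was set by that rule. All 4 have a CCAAT match too. Both sequences are in 23 of the 35 measured mitosis genes with a promoter window, so the 4 do not stand for the rest. Each window runs from 250 bases before to 50 bases after the RefSeq start on the gene's own strand in GRCm38.p6, with CHR letters (TTTGAA or TTCGAA, on either strand, so also TTCAAA) and CCAAT letters (CCAAT, or ATTGG on the other strand) in capitals. The windows are chr10:69352863-69353162 on the minus strand for Cdk1, chr9:70421505-70421804 on the minus strand for Ccnb2, chr7:122159185-122159484 on the plus strand for Plk1 and chr2:164769679-164769978 on the plus strand for Ube2c.
Cdk1: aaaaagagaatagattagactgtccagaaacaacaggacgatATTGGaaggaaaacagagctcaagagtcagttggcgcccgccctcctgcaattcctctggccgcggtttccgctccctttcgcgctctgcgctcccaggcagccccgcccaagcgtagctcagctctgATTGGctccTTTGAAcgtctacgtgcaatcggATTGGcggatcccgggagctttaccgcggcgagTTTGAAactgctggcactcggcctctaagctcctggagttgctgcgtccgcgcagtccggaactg
Ccnb2: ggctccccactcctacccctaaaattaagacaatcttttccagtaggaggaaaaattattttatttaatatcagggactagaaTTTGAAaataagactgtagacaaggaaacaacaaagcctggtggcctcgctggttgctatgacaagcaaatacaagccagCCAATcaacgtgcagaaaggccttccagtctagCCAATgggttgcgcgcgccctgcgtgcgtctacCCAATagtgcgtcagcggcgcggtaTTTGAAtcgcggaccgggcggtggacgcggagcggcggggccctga
Plk1: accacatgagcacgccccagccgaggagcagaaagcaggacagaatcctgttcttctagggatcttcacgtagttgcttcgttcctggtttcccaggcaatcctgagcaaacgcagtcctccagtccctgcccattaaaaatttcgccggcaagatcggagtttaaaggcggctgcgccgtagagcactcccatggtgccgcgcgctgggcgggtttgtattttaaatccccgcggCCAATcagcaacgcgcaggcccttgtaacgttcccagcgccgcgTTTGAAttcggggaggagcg
Ube2c: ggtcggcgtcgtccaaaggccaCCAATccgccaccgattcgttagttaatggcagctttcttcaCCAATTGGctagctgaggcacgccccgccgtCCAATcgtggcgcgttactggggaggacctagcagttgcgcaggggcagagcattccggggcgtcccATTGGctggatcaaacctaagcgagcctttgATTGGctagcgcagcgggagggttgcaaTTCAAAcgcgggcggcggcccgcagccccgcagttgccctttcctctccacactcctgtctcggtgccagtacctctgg
In Cdk1 the CHR letters begin 71 and 15 bases before the start, and in Ccnb2 they begin 167 bases before it and 4 bases after it. In Plk1 they begin 30 bases after the start, and in Ube2c 29 bases before it. Ube2c has 6 CCAAT matches, of which a neighbouring pair overlaps in CCAATTGG.

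Of the 40 measured genes, 35 had a promoter window in the RefSeq table, and 28 of these (80.0%) held CHR letters, against 19.4% of 16990 measured genes with a window. The CHR letters lay within 50 bases of the start in 26 (74.3%), against 5.13% of all measured genes. CCAAT letters were in 24 (68.6%), against 41.6%, and both were in 23 (65.7%), against 8.88%. Birc5, Cenpe, Ncaph, Nuf2, Nusap1, Melk and Mad2l1 had no CHR letters in the window, and they too were higher in HFD and lower in HFD+CR. Ccna2, Aurkb, Kif20a, Tpx2 and Foxm1 had no window in the table. A match is a run of letters, not a measured binding site, and no binding was measured here.

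**Figure D2:**
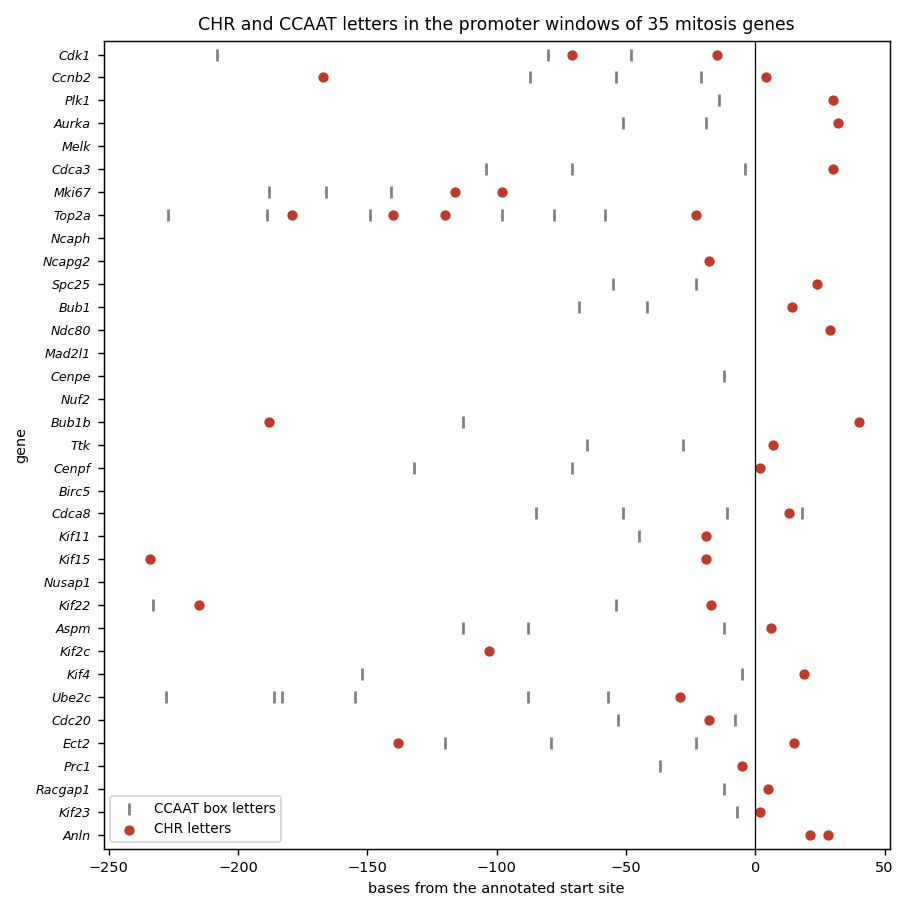
Position of CHR and CCAAT letters in the promoter windows of the 35 measured mitosis genes with a window, in bases from the annotated start site; rows are genes by role, red dots mark CHR letters and grey ticks CCAAT letters, and Prc1 and Ect2, which have more than 1 window, show 1 of them. CHR letters cluster around the start site, with CCAAT letters mostly upstream of them, and 7 rows have no red dot.

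Mitotic chromosome structure genes followed the same course. Mki67 measured 8.44, 8.24, 8.01, 8.20 and 7.97 in the 5 HFD+CR mice, against 9.19 at the lowest, 9.51 at the median and 9.88 at the highest in the HFD mice and 7.82 at the lowest, 8.18 at the median and 8.34 at the highest in the LFD mice. Mki67 encodes Ki-67, which coats mitotic chromosomes and is the usual stain for dividing cells. Every HFD mouse was above every other mouse, and HFD+CR and LFD mice overlapped. Top2a measured 7.55, 7.20, 6.94, 7.15 and 6.99 in the 5 HFD+CR mice, against 7.93 at the lowest, 8.55 at the median and 8.86 at the highest in the HFD mice and 7.07 at the lowest, 7.17 at the median and 7.33 at the highest in the LFD mice. Top2a, topoisomerase II alpha, untangles sister chromatids, and its HFD mice were likewise set apart. Mki67 differed by 1.38 ± 0.12 (SE, adjusted p = 8.76e-08) in HFD minus LFD and by −1.33 ± 0.12 (SE, adjusted p = 4.37e-06) in HFD+CR minus HFD. Top2a differed by 1.28 ± 0.13 (SE, adjusted p = 8.19e-07) and −1.30 ± 0.14 (SE, adjusted p = 8.92e-06).

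The condensin subunits Ncaph and Ncapg2 moved by 0.68 and 0.61 in HFD minus LFD, and by −0.65 and −0.60 in HFD+CR minus HFD. For Ncaph, LFD mouse 3, the mouse with gland and muscle transcripts, read 8.16, while the other LFD mice read 6.82 to 7.02. Without that mouse the HFD minus LFD difference of Ncaph was 0.89. In LFD mouse 3 most other mitosis genes were low, and it was the lowest LFD mouse in 26 of the 40.

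**Figure D3:**
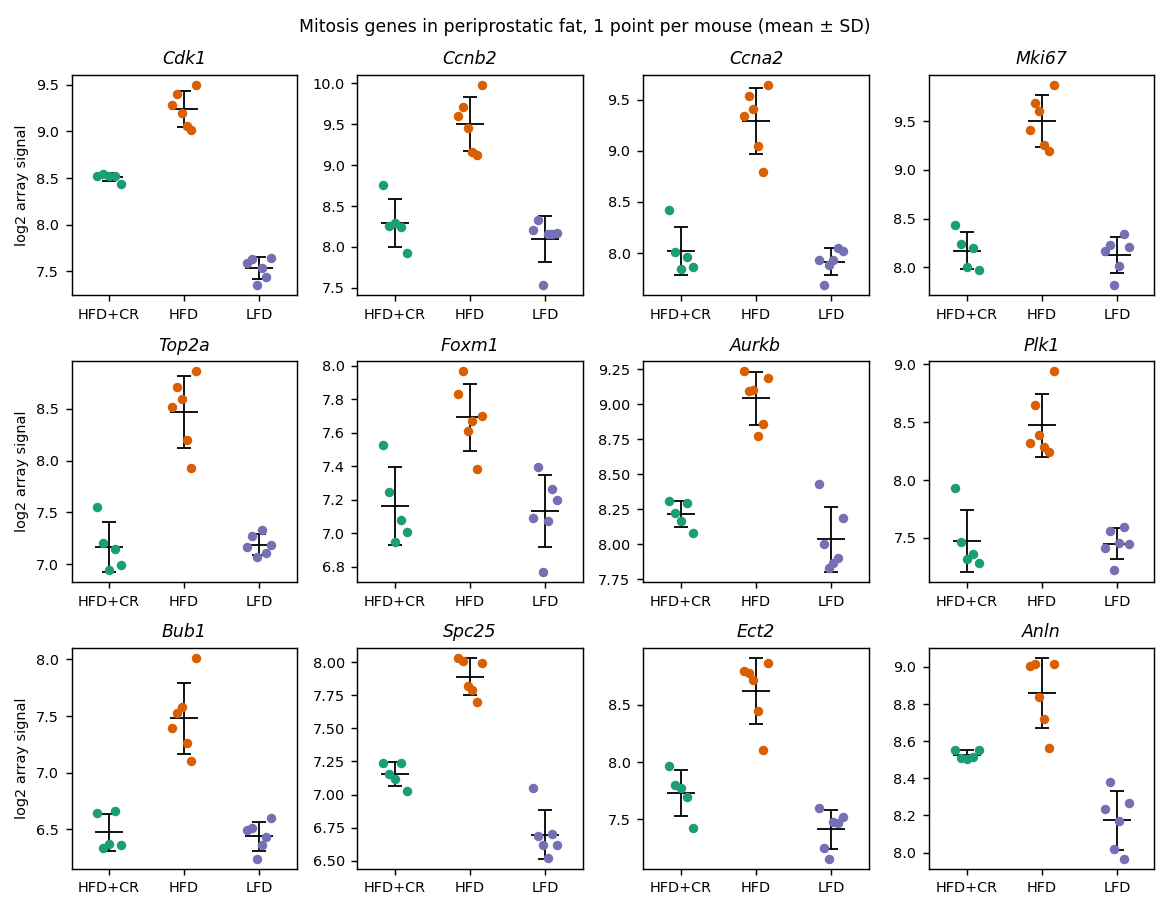
Log2 array signal of 12 mitosis genes, 1 point per mouse, with the HFD+CR, HFD and LFD groups side by side and lines for mean ± SD; each panel has its own axis. The HFD mice lie above the other groups, with overlap in Foxm1, HFD+CR and LFD overlap in most panels, and in Cdk1 and Anln the HFD+CR mice form a narrow band between the other groups.

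All 9 kinetochore and spindle checkpoint genes were higher in HFD, with a median difference of 0.81, and lower in HFD+CR than HFD, with a median of −0.70. Spc25 measured 7.24, 7.15, 7.12, 7.24 and 7.03 in the 5 HFD+CR mice, against 7.70 at the lowest, 7.91 at the median and 8.03 at the highest in the HFD mice and 6.52 at the lowest, 6.65 at the median and 7.05 at the highest in the LFD mice. Spc25 belongs to the Ndc80 complex, which grips microtubules. Its HFD mice were above all others, and its HFD+CR mice were above all LFD mice but mouse 1. Spc25 differed by 1.19 ± 0.08 (SE, adjusted p = 1.05e-08) in HFD minus LFD and by −0.74 ± 0.08 (SE, adjusted p = 1.36e-05) in HFD+CR minus HFD. Its partners Ndc80 and Nuf2 differed by 1.03 and 0.79 in HFD minus LFD, and by −1.01 and −0.62 in HFD+CR minus HFD. The checkpoint proteins are Bub1, Bub1b, Mad2l1 and the kinase Ttk, which delay anaphase while a kinetochore is unattached. In HFD minus LFD the difference was 1.04 for Bub1, 0.99 for Mad2l1, 0.77 for Bub1b and 0.61 for Ttk. In HFD+CR minus HFD it was −1.01 for Bub1, −0.80 for Mad2l1, −0.55 for Bub1b and −0.53 for Ttk. Cenpe, a kinesin that moves chromosomes to the spindle equator, differed by 0.81 and −0.70, and Cenpf by 0.32 and −0.33. When signals below an array's median were raised to it, Ttk differed by −0.009 in HFD minus LFD and 0.014 in HFD+CR minus HFD, since all but 1 of its values lie below the median and were replaced by it.

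The chromosomal passenger complex, which corrects faulty attachments and then guides cytokinesis, had all 3 listed members higher in HFD and lower in HFD+CR than HFD. Aurkb measured 8.31, 8.22, 8.16, 8.30 and 8.08 in the 5 HFD+CR mice, against 8.77 at the lowest, 9.10 at the median and 9.23 at the highest in the HFD mice and 7.83 at the lowest, 7.95 at the median and 8.43 at the highest in the LFD mice. Aurkb, the Aurora B kinase of the complex, differed by 1.01 ± 0.10 (SE, adjusted p = 5.13e-07) and −0.83 ± 0.10 (SE, adjusted p = 2.87e-05), and only its HFD mice were set apart. Birc5, survivin, differed by 0.91 in HFD minus LFD and −0.95 in HFD+CR minus HFD. Cdca8, borealin, differed by 0.57 and −0.48.

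Spindle motors and assembly factors, 8 genes, had median differences of 0.85 in HFD minus LFD and −0.77 in HFD+CR minus HFD. The most changed were Kif11, the motor that pushes spindle poles apart, at 1.16 and −1.06, and Tpx2, an activator of Aurora A, at 1.12 and −1.04. The other motors are Kif15, which helps keep the spindle bipolar, Kif22 and Kif4, which bind chromosome arms, and Kif2c, which shortens microtubules at centromeres. In HFD minus LFD they differed by 0.87 for Kif15, 0.84 for Kif22, 0.51 for Kif2c and 0.49 for Kif4, and in HFD+CR minus HFD by −0.86 for Kif15, −0.74 for Kif22, −0.36 for Kif2c and −0.43 for Kif4. Nusap1, a microtubule bundler, differed by 0.86 and −0.81, and Aspm, a spindle pole protein, by 0.58 and −0.52. The fall of Kif2c was the least secure of these: adjusted p was 0.0331, HFD+CR mouse 1 read 7.52, and the call was lost in 12 of 30 alternatives, those without HFD+CR mouse 2, 3, 4 or 5 or HFD mouse 2 or 6 among them. Leaving out HFD+CR mouse 3 likewise ended the call of Cenpf in HFD+CR minus HFD, at −0.26 (adjusted p = 0.0619). Every value of Kif4 lay below the lowest array median, so with the floor at the array median nothing of its own signal remained (−0.015 and 0.019).

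At the end of mitosis, Ube2c, the ubiquitin-conjugating enzyme of the anaphase-promoting complex, differed by 0.99 ± 0.13 (SE, adjusted p = 1.77e-05) in HFD minus LFD and −0.71 ± 0.14 (SE, adjusted p = 0.00141) in HFD+CR minus HFD. Cdc20, which activates that complex, differed by 0.46 ± 0.08 (SE, adjusted p = 0.000289) and −0.44 ± 0.09 (SE, adjusted p = 0.0012). All 6 cytokinesis genes were higher in HFD and lower in HFD+CR than HFD. Ect2 measured 7.97, 7.80, 7.77, 7.69 and 7.42 in the 5 HFD+CR mice, against 8.11 at the lowest, 8.74 at the median and 8.86 at the highest in the HFD mice and 7.16 at the lowest, 7.47 at the median and 7.60 at the highest in the LFD mice. Ect2 activates RhoA at the division plane, and it differed by 1.21 ± 0.12 (SE, adjusted p = 5.71e-07) and −0.89 ± 0.13 (SE, adjusted p = 7.83e-05). Anln measured 8.55, 8.51, 8.50, 8.52 and 8.55 in the 5 HFD+CR mice, against 8.56 at the lowest, 8.92 at the median and 9.01 at the highest in the HFD mice and 7.97 at the lowest, 8.20 at the median and 8.38 at the highest in the LFD mice. Anln, anillin, scaffolds the contractile ring. The 5 HFD+CR mice lay in a band above every LFD mouse and below every HFD mouse. Anln differed by 0.69 ± 0.08 (SE, adjusted p = 3.9e-06) and −0.33 ± 0.08 (SE, adjusted p = 0.0093). The remaining genes are Prc1, which bundles the central spindle, Racgap1 and Kif23, the partners in centralspindlin, and Kif20a, a motor of the central spindle. In HFD minus LFD they differed by 1.07 for Prc1, 0.86 for Racgap1, 0.85 for Kif23 and 0.79 for Kif20a, and in HFD+CR minus HFD by −1.03 for Prc1, −0.71 for Racgap1, −0.81 for Kif23 and −0.75 for Kif20a.

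**Figure D4:**
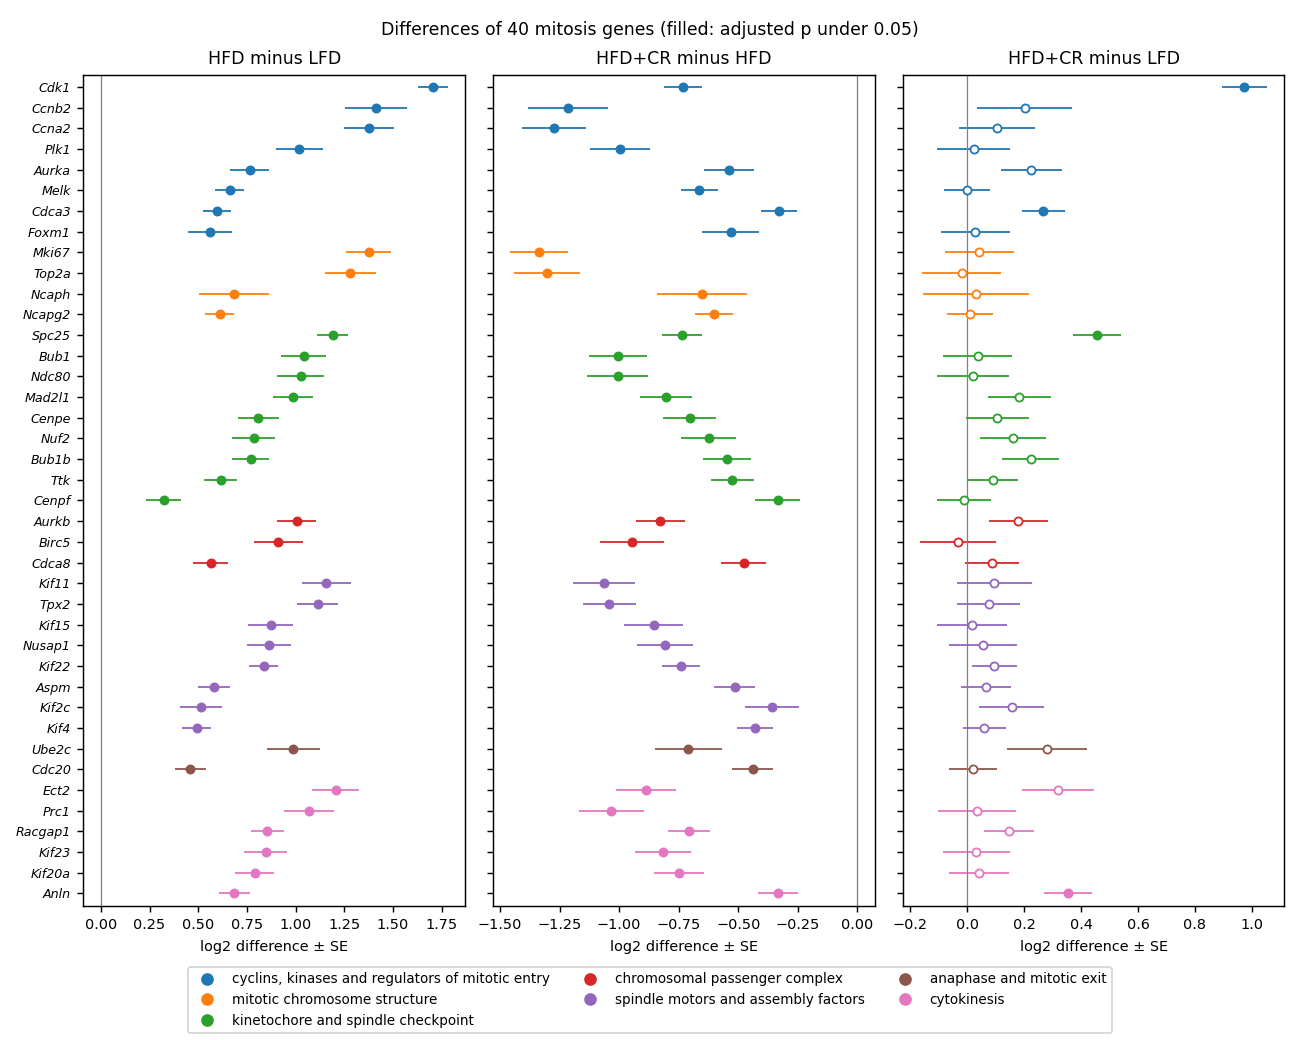
Log2 difference ± SE of each of the 40 measured mitosis genes in the 3 comparisons, coloured by role, with filled points for adjusted p under 0.05 and the vertical line at 0. All points are filled in both comparisons with HFD, and 4 are filled in HFD+CR minus LFD, where Cdk1 lies far right of the rest.

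The comparison of HFD+CR with LFD turned on Cdk1. It was 0.97 ± 0.08 (SE, adjusted p = 3.54e-06) higher in HFD+CR, with a 95% interval of 0.81 to 1.14, and every HFD+CR mouse (8.43 to 8.54) was above every LFD mouse (7.36 to 7.65). Its cyclin partners did not pass: Ccna2 differed by 0.10 ± 0.13 (SE, adjusted p = 0.719) and Ccnb2 by 0.20 ± 0.17 (SE, adjusted p = 0.536). Spc25 differed by 0.46 ± 0.08 (SE, adjusted p = 0.00195), Anln by 0.35 ± 0.08 (SE, adjusted p = 0.0126) and Cdca3 by 0.27 ± 0.07 (SE, adjusted p = 0.0308). Of the 4, Cdk1 and Anln had groups that did not overlap. They were the only such genes of the 40, or 5.0%, near the 4.24% of all genes in this direction. The call of Cdca3 was lost without HFD+CR mouse 1, 4 or 5 or LFD mouse 3 or 4, with adjusted p of 0.0581 to 0.0915, and its difference was 0.20 without HFD+CR mouse 1, the mouse with germ cell transcripts. Without all 5 of the arrays left out above, Spc25, Anln and Cdca3 had adjusted p of 0.0649, 0.0779 and 0.134, and Cdk1 differed by 0.94 (adjusted p = 0.000183). Cdk1 kept all 3 of its calls in the 31 alternatives, with 0.94 to 1.01 in HFD+CR minus LFD.

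For the other 36 genes the difference between HFD+CR and LFD ranged from −0.03 to 0.32, the last in Ect2 at 0.32 ± 0.13 (SE, adjusted p = 0.139). Their 95% intervals lay between −0.36 and 0.58, and in 33 of the 36 the whole interval was within 0.5 on either side of 0. Mki67 differed by 0.04 ± 0.12 (SE, adjusted p = 0.89), Top2a by −0.02 ± 0.14 (SE, adjusted p = 0.956), Aurkb by 0.18 ± 0.10 (SE, adjusted p = 0.344) and Foxm1 by 0.03 ± 0.12 (SE, adjusted p = 0.926). At an unadjusted p under 0.05, 7 of the 40 were higher in HFD+CR, the 4 called ones included, and 0 were lower. The share of all genes at that threshold was not counted, so the 7 cannot be set against a background. Among the regulators the remaining differences were 0.02 for Plk1, 0.22 for Aurka and 0.00 for Melk, and among the condensins 0.03 for Ncaph and 0.01 for Ncapg2. Kinetochore and checkpoint genes differed by 0.04 for Bub1, 0.02 for Ndc80, 0.18 for Mad2l1, 0.10 for Cenpe, 0.16 for Nuf2, 0.22 for Bub1b, 0.09 for Ttk and −0.01 for Cenpf. Passenger complex genes differed by −0.03 for Birc5 and 0.09 for Cdca8, and Ube2c and Cdc20 by 0.28 and 0.02. Spindle genes differed by 0.09 for Kif11, 0.07 for Tpx2, 0.02 for Kif15, 0.06 for Nusap1, 0.10 for Kif22, 0.07 for Aspm, 0.16 for Kif2c and 0.06 for Kif4, and cytokinesis genes by 0.04 for Prc1, 0.15 for Racgap1, 0.03 for Kif23 and 0.04 for Kif20a. The intervals bound the differences and do not show that levels were equal.

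Within each group the same mice tended to be high or low across the genes, in LFD at the low end only. The mean over the 40 genes was 7.13 to 7.45 in HFD+CR mice, 7.72 to 8.28 in HFD mice and 6.97 to 7.20 in LFD mice. HFD mouse 6 was the highest HFD mouse in 30 of the 40 genes, and HFD mice 4 and 5 were each among the lowest pair in 38. Without HFD mouse 6 the counts were 40 higher in HFD than LFD and 39 lower in HFD+CR than HFD. HFD+CR mouse 1 was the highest of its group in 30 genes. Among LFD mice the highest place was spread, with 3 to 9 genes a mouse. LFD mouse 3 was the lowest of its group in 26 genes and among the lowest pair in 34. The median SD of the 40 genes was 0.16 in HFD+CR, 0.234 in HFD and 0.144 in LFD, beside 0.094, 0.11 and 0.125 over all genes in the same groups.

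Other cell cycle genes were read from lists of further mitosis genes, DNA replication genes, transcriptional regulators, G1 regulators, anaphase-promoting complex subunits and cohesin. As background for these and the marker lists, 16.5% of all genes were called higher and 11.3% lower in HFD minus LFD. In HFD+CR minus HFD 7.69% were higher and 11.3% lower, and in HFD+CR minus LFD 5.8% and 3.28%. Of 72 other mitosis genes 60 rose and 1 fell in HFD relative to LFD (median 0.41). In HFD+CR 50 were lower and 2 higher than in HFD (median −0.36), and 7 were higher than in LFD. The largest among them in HFD minus LFD was Fam83d, a spindle protein, at 1.81 ± 0.11 (SE, adjusted p = 5.52e-09), and like Cdk1 it was 0.97 ± 0.11 (SE, adjusted p = 5.02e-05) higher in HFD+CR than LFD, with −0.85 in HFD+CR minus HFD. Cks2, a small protein that binds Cdk1, differed by 1.30 ± 0.15 (SE, adjusted p = 2.62e-06), −0.75 and 0.56 ± 0.16 (SE, adjusted p = 0.0309) in the same order of comparisons. Arhgap11a, a RhoA regulator of cytokinesis, and Knl1, a kinetochore scaffold, were 1.02 and 0.96 higher in HFD than LFD, and 0.35 ± 0.12 (SE, adjusted p = 0.0922) and 0.15 ± 0.14 (SE, adjusted p = 0.606) in HFD+CR minus LFD. The LFD means of Fam83d and Knl1 were below the lowest array median, so their sizes are less certain. The same holds for Rrm2, E2f8 and Esco2, given below.

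Of 35 DNA replication genes 32 were higher in HFD than LFD (median 0.51) and 28 lower in HFD+CR than HFD (median −0.41), with 2 higher in HFD+CR than LFD. Mcm5 and Mcm3, subunits of the replicative helicase, differed by 1.05 and 0.90 in HFD minus LFD and by −0.94 and −0.64 in HFD+CR minus HFD. Rrm2, a ribonucleotide reductase subunit, and Pole2, a DNA polymerase subunit, differed by 1.02 and 0.88, then by −0.90 and −0.75. In HFD+CR minus LFD these 4 genes differed by 0.11 for Mcm5, 0.26 for Mcm3, 0.12 for Rrm2 and 0.13 for Pole2, with adjusted p from 0.0505 to 0.695.

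Transcriptional regulators were mixed: of 24, 12 were higher and 3 lower in HFD than LFD, 3 were higher and 9 lower in HFD+CR than HFD, and 2 were higher and 1 lower in HFD+CR than LFD. E2f8, a repressor of the E2F family, differed by 0.81 ± 0.09 (SE, adjusted p = 1.4e-06) in HFD minus LFD and −0.75 ± 0.09 (SE, adjusted p = 2.17e-05) in HFD+CR minus HFD. E2f1, an activator of S phase genes, differed by 0.56 ± 0.05 (SE, adjusted p = 2.87e-07) and −0.20 ± 0.05 (SE, adjusted p = 0.016), and was 0.36 ± 0.05 (SE, adjusted p = 0.000449) higher in HFD+CR than LFD. Lin52, a MuvB subunit, moved the other way, by −0.45 ± 0.06 (SE, adjusted p = 1.27e-05) and 0.51 ± 0.06 (SE, adjusted p = 2.08e-05). Nfya, the NF-Y subunit that helps bind CCAAT boxes, differed by 0.45 ± 0.07 (SE, adjusted p = 3.98e-05) and −0.30 ± 0.07 (SE, adjusted p = 0.0045).

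Of 16 G1 regulators 6 were higher and 2 lower in HFD than LFD (median 0.09), 2 were higher and 6 lower in HFD+CR than HFD (median −0.10), and 2 were lower in HFD+CR than LFD. Cdk6, a G1 kinase, differed by 0.85 ± 0.14 (SE, adjusted p = 0.000102) in HFD minus LFD and −0.82 ± 0.14 (SE, adjusted p = 0.000489) in HFD+CR minus HFD. Ccne1, cyclin E1, differed by 0.50 and −0.35, and Ccnd1, cyclin D1, by 0.38 and −0.67. Cdkn2c, an inhibitor of Cdk4 and Cdk6, moved the other way, at −0.70 ± 0.06 (SE, adjusted p = 1.72e-07) in HFD minus LFD and 0.24 ± 0.07 (SE, adjusted p = 0.0158) in HFD+CR minus HFD, and was also lower in HFD+CR than LFD, at −0.46 ± 0.07 (SE, adjusted p = 0.000247).

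The anaphase-promoting complex, whose subunits are also used outside mitosis, had 4 of 17 genes higher in HFD than LFD, 3 lower in HFD+CR than HFD and 2 higher in HFD+CR than LFD, with medians of 0.11, −0.03 and 0.03. The 4 in HFD were Anapc4, Cdc26, Ube2s and Anapc2, at 0.24, 0.20, 0.19 and 0.19. Of 13 cohesin genes, which hold sister chromatids together, Esco2 and Smc3 were higher in HFD, at 0.57 ± 0.09 (SE, adjusted p = 0.0001) and 0.18 ± 0.05 (SE, adjusted p = 0.00871), and both were lower in HFD+CR than HFD, at −0.56 and −0.17. By limma 0 of the 13 passed in HFD+CR minus LFD, and 2 had an unadjusted p under 0.05, where the share of all genes was not counted. CHR letters were in the windows of 36 of 58 other mitosis genes (62.1%), 6 of 28 DNA replication genes (21.4%), 7 of 18 transcriptional regulators (38.9%), 3 of 8 cohesin genes (37.5%), 4 of 16 anaphase-promoting complex genes (25.0%) and 1 of 13 G1 regulators (7.69%), beside the 80.0% of the mitosis genes described above. Over all measured genes with a window the share was 19.4%.

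**Figure D5:**
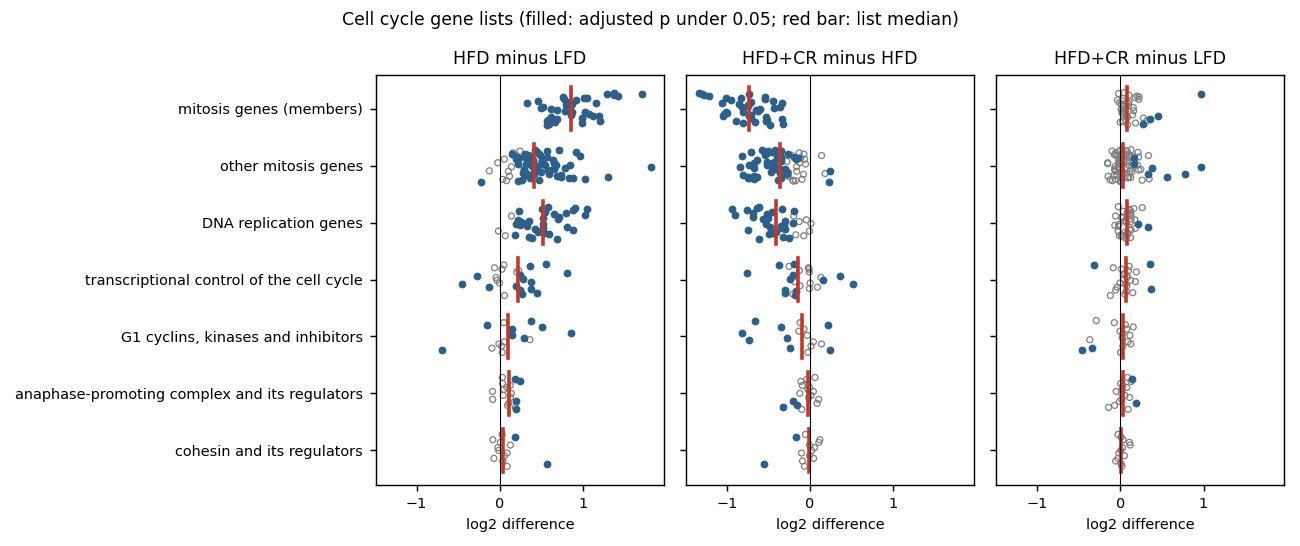
Log2 difference of each measured gene of 7 cell cycle lists in the 3 comparisons; each point is a gene, filled for adjusted p under 0.05, red bars are list medians and vertical lines mark 0. The mitosis genes have list medians of 0.85, −0.73 and 0.08, the DNA replication genes 0.51, −0.41 and 0.09, and the cohesin and anaphase-promoting complex lists lie near 0.

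Most macrophage markers and some adipose progenitor markers moved with the mitosis genes, and their part in the result was not tested. Of 16 macrophage markers 13 were higher in HFD than LFD, 13 were lower and 1 higher in HFD+CR than HFD, and 6 were higher in HFD+CR than LFD. Their mean was 10.15 to 10.60 in HFD+CR mice, 10.87 to 11.36 in HFD mice and 9.77 to 10.10 in LFD mice, and within HFD it was highest in mouse 6 and lowest in mouse 5, as was the mean of the 40 mitosis genes. Within HFD+CR the macrophage mean was highest in mouse 1 and lowest in mouse 2, while the mitosis mean was highest in mouse 1 and lowest in mouse 5. Adgre1 (F4/80) differed by 1.31 ± 0.14 (SE, adjusted p = 1.04e-06) in HFD minus LFD, −0.99 ± 0.14 (SE, adjusted p = 0.000103) in HFD+CR minus HFD and 0.32 ± 0.14 (SE, adjusted p = 0.198) in HFD+CR minus LFD. Cd68 differed by 1.92 ± 0.15 (SE, adjusted p = 3.75e-08), −0.99 ± 0.15 (SE, adjusted p = 0.000182) and 0.93 ± 0.15 (SE, adjusted p = 0.000862) in the same comparisons, and Itgam by 0.60 ± 0.14 (SE, adjusted p = 0.00308), −0.59 ± 0.15 (SE, adjusted p = 0.00826) and 0.02 ± 0.15 (SE, adjusted p = 0.969). Of these 3 genes Cd68 alone passed in HFD+CR minus LFD.

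Of 13 adipose progenitor markers 8 were higher in HFD than LFD, 6 were lower in HFD+CR than HFD and 3 were higher in HFD+CR than LFD, and their mean was 10.16 to 10.50 in HFD+CR, 10.58 to 10.85 in HFD and 10.22 to 10.31 in LFD. That mean, like the mitosis mean, was highest in mouse 6 and lowest in mouse 5 within HFD, and highest in mouse 1 and lowest in mouse 5 within HFD+CR. The order within HFD was not particular to macrophage and progenitor markers, but not every list had it. Transcriptional regulators of the cell cycle (9.11 in HFD mouse 6, 8.91 in HFD mouse 5) and the 4 measured germinal centre B cell markers (8.19 and 7.94) had the same highest and lowest mouse. Endothelial, T cell, B and plasma cell and adipocyte markers did not. T cell markers (7.34) and adipocyte markers (12.33) were lowest in HFD mouse 6. Pdgfra differed by 0.56 ± 0.10 (SE, adjusted p = 0.000239), −0.06 ± 0.10 (SE, adjusted p = 0.758) and 0.50 ± 0.10 (SE, adjusted p = 0.00449) in the order HFD minus LFD, HFD+CR minus HFD and HFD+CR minus LFD. Pdgfrb differed by 0.45 ± 0.09 (SE, adjusted p = 0.00105), −0.32 ± 0.10 (SE, adjusted p = 0.0238) and 0.12 ± 0.10 (SE, adjusted p = 0.494), and Dpp4 by 0.09 ± 0.11 (SE, adjusted p = 0.607), 0.03 ± 0.11 (SE, adjusted p = 0.896) and 0.12 ± 0.11 (SE, adjusted p = 0.587). Adipocyte markers moved the other way, with 8 of 10 lower and 1 higher in HFD than LFD, 8 higher in HFD+CR than HFD, and 1 higher and 1 lower in HFD+CR than LFD. Adipoq differed by −0.28 ± 0.06 (SE, adjusted p = 0.00193) and 0.32 ± 0.06 (SE, adjusted p = 0.00132) and Plin1 by −0.33 ± 0.05 (SE, adjusted p = 3.54e-05) and 0.28 ± 0.05 (SE, adjusted p = 0.000694), while Lep differed by 0.44 ± 0.08 (SE, adjusted p = 0.000415) and −0.14 ± 0.08 (SE, adjusted p = 0.282). Of 10 endothelial markers 1 was lower in HFD than LFD and 0 differed in the other comparisons, and of 9 T cell markers 0 differed in any comparison by limma. At an unadjusted p under 0.05, 4, 2 and 1 endothelial markers differed in HFD minus LFD, HFD+CR minus HFD and HFD+CR minus LFD. For T cell markers these counts were 0, 1 and 1. The share of all genes at that threshold was not counted, so these counts have no background beside them. Of 9 B and plasma cell markers 2 were lower in HFD than LFD and 1 was lower in HFD+CR than LFD.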

How the data were processed

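Periprostatic fat RNA of 17 mice was measured on Affymetrix Mouse Gene 2.0 ST arrays, 1 array per mouse. The log2 signals used here are the deposited values of the authors. The submitters' processing notes list R 3.5.0, limma and RMA, without their settings. Arrays have no read depth, so their number limits the precision. Of 33793 probe sets 23521 carry 1 gene symbol, 1814 several and 8458 none in the platform annotation; only the first were used, taking for each gene the probe set with the highest mean over the 17 arrays. This leaves 22180 genes.

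A model of 3 group means was fitted in limma 3.58.1 (R 4.3.3) on all 17 arrays (14 residual and 3.625 prior degrees of freedom), and p-values were adjusted by Benjamini-Hochberg over all genes, with a call at adjusted p under 0.05. The fit was tested on simulated data. The mice are separate animals per the labels, and no scan batch is named in the sources used here. The mouse numbers of the labels were not used as pairs in this fit.

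The mitosis genes, their roles and the other lists were chosen with earlier results of these data known. Values by mouse are given for the 4 genes with the largest difference in each comparison and for Mki67, Top2a, Cdk1, Foxm1 and Aurkb; every other measured gene is given by its differences. Of the other cell cycle lists, the 4 genes with the largest called difference in HFD minus LFD are named, and of the macrophage, progenitor and adipocyte lists the first 3. Promoter sequences are those of RefSeq (GRCm38.p6). Alternatives were leaving out each mouse, a signal floor or filter, other thresholds and scalings, and leaving out arrays with other tissues.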

Additional observations from a re-analysis of the deposited data

Results flagged for a closer look

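A mouse far from the rest of its group was found in 10 of 120 sets of values (40 genes in 3 groups) by Dixon's test at the 95% level, where chance gives about 5% of sets. In LFD mouse 3, whose array carries gland and muscle transcripts, 6 genes stood apart. Ccnb2 read 7.53 there and 8.15 to 8.32 in the other LFD mice, Bub1b 6.81 and 7.11 to 7.27, and Kif23 7.17 and 7.5 to 7.62. Nuf2 read 6.21 there and 6.59 to 6.72 in the others, Ube2c 7.74 and 8.28 to 8.6, and Ncaph, the one gene higher in this mouse, 8.16 and 6.82 to 7.02. In HFD+CR mouse 1, whose array carries male germ cell transcripts, Ccna2 read 8.42, while the other HFD+CR mice read 7.85 to 8.01, and Plk1 read 7.93, while the others read 7.28 to 7.47. Cdk1 read 8.43 in HFD+CR mouse 5 and 8.52 to 8.54 in the other HFD+CR mice. Spc25 read 7.05 in LFD mouse 1 and 6.52 to 6.7 in the other LFD mice.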

How the results depend on the processing

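Leaving out each of the 17 mice in turn gave 40 to 40 genes higher in HFD than LFD with medians of 0.80 to 0.91, 38 to 40 lower in HFD+CR than HFD with medians of −0.78 to −0.68, and 3 to 4 higher in HFD+CR than LFD with medians of 0.03 to 0.11. Restricting the test to genes above the median gene kept 19 of the 40, with 19 higher in HFD, 19 lower in HFD+CR than HFD and 2 higher in HFD+CR than LFD; fewer genes were tested there. The 4 genes higher in HFD+CR than LFD became 2 with signals floored at the array median, 2 at adjusted p under 0.01, 1 at 1.5-fold and 1 without the 5 arrays with other tissue or germ cell transcripts. The floor reversed Kif4 (−0.015) and Ttk (−0.009) in HFD minus LFD, and Kif4 (0.019), Melk (0.002) and Ttk (0.014) in HFD+CR minus HFD, all genes with nearly every signal below the array median; the floor puts the array medians in place of such signals, so those signs carry no measurement of the genes. Under the floor 34 genes were higher in HFD than LFD and 33 lower in HFD+CR than HFD, with Aspm, Birc5 and Cenpf losing both calls, Melk, Kif4 and Ttk likewise, and Kif2c the second. At 1.5-fold these counts were 33 and 28, and at adjusted p under 0.01 they were 39 and 37. Without the 4 arrays with muscle or gland transcripts they were 39 and 39, with 4 higher in HFD+CR than LFD. The share of all genes called was counted only in the main fit at adjusted p under 0.05. Counts under other settings have no such share beside them. With the mouse number as a replicate block the counts were 40, 39 and 4 and the medians 0.85, −0.70 and 0.11; Kif2c (−0.35, adjusted p = 0.0543) lost its call in HFD+CR minus HFD. The labels do not say that the mouse numbers mark shared animals, litters or days. Deviations from group means correlated at −0.108 to 0.409 between same-numbered mice (median 0.041, 5 of 16 pairs over 0.1) and at −0.307 to 0.317 between others (median −0.024, 11 of 80 pairs over 0.1), and 6 of 17 mice correlated best with their own number. The highest same-numbered pair was HFD mouse 3 with LFD mouse 3 (0.409), the arrays highest in gland markers. Next was HFD+CR mouse 2 with LFD mouse 2 (0.303), both raised in muscle markers. Absolute signal over background was not measured for these genes, which limits the 17 with LFD means below the lowest array median.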

Other observations

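A few cell cycle genes outside the 40, picked after their values were seen, moved apart from them. Wee1, the kinase that inhibits Cdk1 before mitosis, was higher in both high-fat groups: it was 0.59 ± 0.17 (SE, adjusted p = 0.0112) in HFD minus LFD and 0.77 ± 0.17 (SE, adjusted p = 0.00808) in HFD+CR minus LFD, with 0.18 ± 0.17 (SE, adjusted p = 0.558) in HFD+CR minus HFD. Nek2, a centrosome kinase, was likewise 0.41 ± 0.08 (SE, adjusted p = 0.000441) and 0.34 ± 0.08 (SE, adjusted p = 0.0125) above LFD, with −0.08 ± 0.08 (SE, adjusted p = 0.588) in HFD+CR minus HFD. Every value of Nek2 lay below the lowest array median, so its sizes are uncertain. Its highest HFD+CR mouse read 6.845, against a group median of 6.37. Mybl1, A-Myb, a regulator best known from spermatocytes, was 0.38 ± 0.11 (SE, adjusted p = 0.0123) in HFD minus LFD and 0.37 ± 0.11 (SE, adjusted p = 0.0473) in HFD+CR minus LFD, and HFD+CR mouse 1 carries male germ cell transcripts, whose part in the result was not tested.

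Pttg1, securin, which restrains separase until anaphase, went against the other mitosis genes, at −0.23 ± 0.06 (SE, adjusted p = 0.00423) in HFD minus LFD and 0.23 ± 0.06 (SE, adjusted p = 0.00912) in HFD+CR minus HFD. Ncapd3, a condensin II subunit, was 0.24 ± 0.05 (SE, adjusted p = 0.00226) in HFD+CR minus HFD, with −0.13 ± 0.05 (SE, adjusted p = 0.0626) in HFD minus LFD. E2f2 and Cdkn2b, an inhibitor of Cdk4 and Cdk6, were lower in HFD+CR than in both other groups. E2f2 was −0.37 ± 0.09 (SE, adjusted p = 0.00585) against HFD and −0.32 ± 0.09 (SE, adjusted p = 0.0278) against LFD, and Cdkn2b was −0.24 ± 0.08 (SE, adjusted p = 0.0343) against HFD and −0.34 ± 0.08 (SE, adjusted p = 0.0091) against LFD.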
